A study of Homo sapiens with 6 samples.

Results

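The siRNAs described here target 14 genes of glycolytic kinases, in a screen of 939 library wells. Each gene had 1 well, read once in every sample. Members were chosen by the Entrez locus identifier in the deposited table, and all 14 genes were found. They are the hexokinases HK1 (locus 3098), HK2 (3099) and HK3 (3101), the phosphofructokinases PFKL (5211), PFKM (5213) and PFKP (5214), the bifunctional enzymes PFKFB1 (5207), PFKFB2 (5208), PFKFB3 (5209) and PFKFB4 (5210), the phosphoglycerate kinases PGK1 (5230) and PGK2 (5232), and the pyruvate kinases PKLR (5313) and PKM (5315, listed under the older symbol PKM2). The cells were SUM149PT, an established cell line from an inflammatory breast cancer of the triple-negative type. Every sample received 45 nM siRNA on 750 cells for 48 hours. The 3 treated samples then had 50 µM eicosapentaenoic acid (EPA), an omega-3 fatty acid, for 72 hours, and the 3 untreated samples did not. The stated purpose was to find a druggable gene whose knockdown adds to the effect of EPA.

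Glycolysis breaks glucose down to pyruvate in the cytosol, and kinases stand at its entry, its committed step and its ATP-yielding end. Tumour cells often draw heavily on it, and several of its enzymes exist as isozymes that tissues use in different proportions. The readout was the fluorescence of a resazurin dye that metabolically active cells reduce. A knockdown that alters metabolism can therefore change the signal without a loss of cells, and neither cell number nor knockdown of the target was measured in the data used here. The sequences of the siRNAs were not used here, and the sources do not say whether a well held 1 siRNA or a pool.

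The signal of each well has to be read against controls and plate position. OTP3, the negative control siRNA, kept 50.8% ± 3.50 (SE, 3 samples per group) of its mean fluorescence with EPA over all plates. The share was 54.3% ± 5.11 on plate 1 and 48.4% ± 3.25 on plate 2. As a median over wells OTP3 kept 44.7% ± 4.83 over all plates. The median fluorescence of all library wells fell to 62.4% ± 3.38 of untreated on plate 1 and 60.7% ± 7.22 on plate 2. On plate 2 blank wells still read 3664 units untreated and 3885 with EPA, and over all plates TOX, the positive control siRNA, had a median of 4539 ± 277.4 and 3834 ± 122.9 (SD, n = 3). The hexokinase wells lay in row 16 of plate 1, at the plate edge, where the 2 wells of cells without siRNA kept 80.8% ± 5.46. The other members were on plate 2. The pyruvate kinases were in row 2 (cells without siRNA kept 64.6% ± 6.02), PFKFB1, PFKFB2 and PFKFB3 in row 10 (37.6% ± 2.62), and the other 6 in row 12 (37.7% ± 2.41).

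With EPA, the signal of the PFKL, PGK1 and PGK2 knockdowns fell further than that of the plate. The signal of the PFKP, PFKFB2 and PKM knockdowns fell less than that of the plate, and that of the PFKFB3 knockdown did not fall on average. These calls come from limma, fitted to log2 fluorescence relative to the library median of the plate and sample over all 939 siRNAs, at a Benjamini-Hochberg adjusted p under 0.05. So 3 of the 14 members were lower with EPA, beside 15.2% of all library siRNAs, and 4 were higher, beside 29.0%. The median member difference (EPA-treated minus untreated) was 0.15 log2 units, beside 0.20 over all siRNAs. Neither the counts nor the median set the members apart from the library. On the log2 scale every EPA-treated value was under every untreated value for 4 members, beside 18.8% of all siRNAs, and over it for 5, beside 36.0%. The members added by this count are PKLR in the first group and PFKFB1 in the second, both by a slight margin. The highest EPA-treated value of PKLR was -0.465 and its lowest untreated value -0.462. For PFKFB1 the lowest EPA-treated value was -1.24 and the highest untreated value -1.28.

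PFKL, the liver-type subunit of phosphofructokinase, stood furthest from the library. Its well read 30060, 30574 and 30381 units untreated and 5689, 4938 and 4605 with EPA. Every EPA-treated value was far under every untreated value, and the untreated readings were within a narrow range (SD 259.6). PFKL thus kept 16.7% ± 1.06 of its signal. In its row the median fluorescence of the 14 library wells that are not members fell to 47.2% ± 4.87. The PFKL log2 difference was -1.85 (SE 0.15, limma adjusted p = 0.000169), which ranked 4 from the lowest of the 939. Above the blank level PFKL retained 4.47% ± 1.22 of the untreated signal, against 44.1% ± 3.48 for OTP3 on that plate, and after blank subtraction its log2 difference was -3.65.

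Phosphofructokinase carries out the committed step of glycolysis as a tetramer of liver, muscle and platelet subunits, and the other two subunits did not share the fall of PFKL. PFKM, the muscle type, read 26727, 24013 and 31228 untreated and 24829, 18149 and 17531 with EPA, so the raw readings of the groups overlapped. It kept 73.8% ± 10.3, and its log2 difference was 0.29 (SE 0.15, limma adjusted p = 0.144). PFKP, the platelet type, read 17734, 11059 and 12324 untreated and 13677, 10429 and 10416 with EPA. Its raw readings overlapped too, with 84.0% ± 14.8 left, while relative to the falling plate median it rose by 0.50 (SE 0.17, limma adjusted p = 0.0372). The PFKP call was lost when any replicate other than untreated replicate 1 was left out (0.41 to 0.53, limma adjusted p from 0.0585 to 0.112). Against the median of their own plate row, both passed as higher, PFKM at 0.73 (limma adjusted p = 0.00236) and PFKP at 0.95 (0.00234).

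The wells of the 3 subunits lay in the same row of plate 2, in columns 7, 9 and 11, and were compared within each sample. The log2 difference PFKL minus PFKM was 0.16 ± 0.19 untreated and -1.98 ± 0.13 with EPA (SD, n = 3), a change of -2.14 ± 0.14 (SE). PFKL minus PFKP changed from 1.18 ± 0.37 to -1.17 ± 0.09, by -2.35 ± 0.22. In both pairs all EPA-treated values lay below all untreated ones (two-sided exact permutation p = 0.1, which 3 samples against 3 cannot go below, and 0.233 adjusted over the 14 isozyme pairs tested). PFKM minus PFKP changed by -0.21 ± 0.22, with the groups overlapping (exact permutation p = 0.4). Without EPA the order was different, since PFKP alone among the subunits was below the library median, at -0.87 (SE 0.12, limma adjusted p = 0.000112), with PFKL at 0.31 (0.0284) and PFKM at 0.15 (0.234). The PFKL call without EPA did not hold when untreated replicate 2 (0.26, limma adjusted p = 0.123) or 3 (0.29, 0.120) was left out, nor after blank subtraction (0.36, 0.159). That call was also lost against the row median (0.25, limma adjusted p = 0.0612) and after blank subtraction with median polish (0.41, 0.200).

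PGK1 and PGK2, the widely expressed and the testis form of phosphoglycerate kinase, which makes ATP in the lower part of the pathway, were both lower with EPA. PGK1 read 37246, 19833 and 33481 untreated and 11492, 5184 and 6789 with EPA, with no overlap but a wide spread in each group. It kept 25.9% ± 7.74, and its log2 difference was -1.24 (SE 0.25, limma adjusted p = 0.00384). PGK2 read 30510, 28463 and 30401 untreated and 9597, 8105 and 7392 with EPA, a tighter set. It kept 28.1% ± 2.27, with a log2 difference of -1.11 (SE 0.15, limma adjusted p = 0.000653). From the lowest of all siRNAs, PGK1 ranked 27 and PGK2 ranked 35.

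The PGK1 and PGK2 responses did not differ beyond their spread: PGK1 minus PGK2 changed by -0.14 ± 0.36 (SE, exact permutation p = 0.6). Without EPA PGK1 was at 0.25 (SE 0.18, limma adjusted p = 0.230) and PGK2 at 0.28 (SE 0.10, 0.0329) from the library median. The PGK2 call without EPA did not hold when untreated replicate 2 (0.27, limma adjusted p = 0.108) or 3 (0.25, 0.162) was left out. That call was also lost against the row median (0.22, limma adjusted p = 0.0651) and after blank subtraction, alone (0.32, 0.0698) or with median polish (0.41, 0.0687). With EPA both were below that median, at -0.995 and -0.83. PFKL, PGK1 and PGK2 kept the smallest shares of signal of the 20 library wells in row 12 of plate 2 (ranks 1, 2 and 3). PFKM and PFKP, in that row too, ranked 16 and 17. Since the whole row fell more than the plate, the log2 differences from the row's own median were smaller for PGK1 (-0.80, limma adjusted p = 0.0247) and PGK2 (-0.66, 0.00348), and PFKL stood at -1.40 there. Centred on OTP3, PGK1 was at -0.72 (limma adjusted p = 0.0227) and PGK2 at -0.59 (0.0189). After blank subtraction PGK1 was at -2.09.

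The bifunctional PFKFB enzymes make and break down the sugar bisphosphate that activates phosphofructokinase, and none of their 4 knockdowns passed as lower in EPA-treated minus untreated. PFKFB3, the form with the strongest bias to synthesis, read 21902, 12793 and 17150 untreated and 21294, 16701 and 18236 with EPA. The groups overlapped almost fully, so 108.5% ± 18.3 of its signal was left while its plate fell. Its log2 difference was 0.88 (SE 0.18, limma adjusted p = 0.00456), which ranked 27 from the highest of all siRNAs, and it kept the largest share of the 20 library wells in row 10. Without EPA PFKFB3 was below the library median, at -0.54 (SE 0.13, limma adjusted p = 0.00403), and with EPA above it, at 0.34 (0.0371). Against the row median the untreated call was lost (-0.090, limma adjusted p = 0.486). The call with EPA was lost without any single EPA-treated replicate, with values of 0.24 to 0.39 (limma adjusted p from 0.0516 to 0.203).

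PFKFB2, the heart form, read 21094, 26514 and 24520 untreated and 29663, 17964 and 18782 with EPA, again with overlap and 92.1% ± 16.8 left. Relative to the plate it rose by 0.58 (SE 0.18, limma adjusted p = 0.0233). That call was lost without untreated replicate 1 (0.43, limma adjusted p = 0.0764), EPA-treated replicate 4 (0.50, 0.0656) or EPA-treated replicate 6 (0.57, 0.0647), and against the row median (0.46, 0.0807). PFKFB1, the liver form, had the lowest signal of the members without EPA, at 11024, 8896 and 8452, and read 7686, 8384 and 7162 with it. All 3 EPA-treated readings were below the untreated ones, yet the fall was small, with 81.9% ± 7.83 left, or 66.6% ± 12.1 above the blank level.

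PFKFB1 stood at -1.38 (SE 0.12, limma adjusted p = 5.50e-06) from the library median untreated and at -0.93 (5.60e-05) with EPA. Median polish cut these to -0.58 (limma adjusted p = 0.00175) and -0.33 (0.0452). The difference of 0.45 (SE 0.17) did not pass (limma adjusted p = 0.0565), but did in 5 of 16 alternatives. Among them were the fit without EPA-treated replicate 4 (0.60, limma adjusted p = 0.0192) and OTP3 centring (0.97, 0.00170), where 58.1% of all siRNAs were higher. The difference did not pass after blank subtraction (0.38, limma adjusted p = 0.353), against the row median (0.33, 0.180) or after median polish (0.25, 0.322). PFKFB4, a form first known from testis, lay in row 12 rather than row 10. It read 21898, 24043 and 25372 untreated and 10019, 14190 and 13051 with EPA, which is 52.2% ± 5.69 left and no overlap of raw readings. The log2 values relative to the plate did overlap, and the difference was -0.21 (SE 0.25, limma adjusted p = 0.50).

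Set against PFKFB4 within each sample, PFKFB1, PFKFB2 and PFKFB3 changed by 0.67 ± 0.23, 0.80 ± 0.39 and 1.09 ± 0.37 log2 units (SE), with all EPA-treated values above all untreated ones (exact permutation p = 0.1 each, 0.233 adjusted over 14 pairs). After each well was centred on its own row these changes were 0.10 ± 0.18, 0.23 ± 0.38 and 0.53 ± 0.29, with the groups overlapping (exact permutation p = 0.7, 0.7 and 0.2). The median fluorescence of library wells that are not members fell to 62.1% ± 7.98 in row 10 and to 47.2% ± 4.87 in row 12. The 3 pairs within row 10 overlapped, with changes of -0.13 ± 0.32 for PFKFB1 minus PFKFB2, -0.43 ± 0.21 for PFKFB1 minus PFKFB3 and -0.30 ± 0.35 for PFKFB2 minus PFKFB3.

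Pyruvate kinase closes the pathway with its second ATP-yielding reaction, and the knockdowns of its 2 genes lay on opposite sides of the library median with EPA. PKM, the gene of the muscle and tumour forms, read 35086, 25606 and 34151 untreated and 36073, 30317 and 21355 with EPA. The readings overlapped, and 92.5% ± 16.2 of the signal was left. Relative to the plate PKM rose by 0.60 (SE 0.15, limma adjusted p = 0.00919). PKLR, the liver and red cell gene, read 19499, 24345 and 17391 untreated and 11102, 9190 and 9146 with EPA, with no overlap and 48.1% ± 5.79 left.

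The PKLR difference of -0.31 (SE 0.19) did not pass in the plate-centred fit (limma adjusted p = 0.193). Its level did, at -0.59 (SE 0.13, limma adjusted p = 0.00202) with EPA, beside -0.28 (0.0812) without. Both wells lay in row 2, where the median fluorescence of the 18 library wells that are not members fell to 73.2% ± 11.3. Against the row median PKLR passed as lower, at -0.59 (limma adjusted p = 0.0317), and PKM no longer passed as higher (0.32, 0.117). Within each sample PKLR minus PKM changed from -0.63 ± 0.49 to -1.55 ± 0.28 (SD, n = 3), by -0.92 ± 0.33 (SE), with no overlap (exact permutation p = 0.1).

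Hexokinases trap glucose in the cell by phosphorylating it. In the plate-centred fit the EPA response of their 3 knockdowns was close to that of the library. HK1, the ubiquitous form, read 36331, 42404 and 49026 untreated and 30243, 22762 and 30666 with EPA, or 65.5% ± 8.25 left. HK2, the insulin-responsive form that many tumours induce, read 25077, 29488 and 31400 untreated and 19324, 22414 and 21074 with EPA, or 73.1% ± 5.70 left. HK3, known mainly from blood cells, read 40350, 40654 and 40516 untreated and 29526, 23476 and 22345 with EPA, or 62.0% ± 5.50 left. In raw units the EPA-treated readings lay below the untreated ones for all 3, but the log2 values relative to the plate overlapped. Their differences were 0.07, 0.24 and -0.02 (SE 0.16, 0.16 and 0.12, limma adjusted p = 0.730, 0.263 and 0.921). Centred on OTP3, HK1 (0.46, limma adjusted p = 0.0280) and HK2 (0.62, 0.0254) passed as higher, beside 58.1% of all siRNAs. HK3 did not pass there (0.37, 0.0583). After median polish HK3 passed as lower (-0.52, limma adjusted p = 0.0137), and HK1 (-0.30, 0.178) and HK2 (-0.16, 0.422) did not pass.

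HK1 and HK3 were above the library median in both groups, at 0.81 and 0.75 untreated (SE 0.11 and 0.08) and at 0.88 and 0.73 with EPA, while HK2 stood at 0.24 (SE 0.12, limma adjusted p = 0.0850) and 0.48 (0.00351). HK2 passed untreated without EPA-treated replicate 4 (0.24, limma adjusted p = 0.0429). In that edge row the median fluorescence of the library wells that are not members fell to 81.3% ± 5.67. Against the row median none of HK1 (0.21), HK2 (-0.36) and HK3 (0.15) passed as higher untreated, and HK2 passed as lower (limma adjusted p = 0.0226). With EPA the row-centred values were 0.042 for HK1 (limma adjusted p = 0.735) and -0.11 for HK3 (0.351), and HK2 again passed as lower (-0.36, 0.0196). The HK pairs changed by -0.16 ± 0.20 to 0.25 ± 0.20 with EPA, all with overlapping groups. After median polish HK2 minus HK3 changed by 0.37 ± 0.095 without overlap (exact permutation p = 0.1).

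Without EPA, 3 of the 14 members were lower than the library median (PFKFB1, PFKP and PFKFB3), beside 35.6% of all siRNAs, and 5 were higher (HK1, HK3, PKM, PFKL and PGK2), beside 33.9%. PKM, at 0.35 (SE 0.10, limma adjusted p = 0.0123), did not pass without untreated replicate 1 (0.33, 0.0547) or 3 (0.27, 0.10), so that leaving out replicate 3 cut the higher calls to 2. PGK1 (0.48, limma adjusted p = 0.0455) and PKLR (-0.46, 0.0145) passed without untreated replicate 2. These calls are relative to a library whose wells mostly read below OTP3. Whether knockdown lowered them was not tested. As shares of OTP3 on their own plates the members ranged from 17.8% ± 2.56 (PFKFB1) to 85.5% ± 10.1 (HK1; SD, n = 3), and centred on OTP3 all 14 were lower and 0 higher, beside 91.8% and 0.532% of all siRNAs.

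With EPA, 6 members were lower (PFKL, PGK1, PFKFB1, PGK2, PKLR and PFKP), beside 37.0% of all siRNAs, and 7 were higher (PKM, HK1, HK3, PFKFB2, HK2, PFKM and PFKFB3), beside 36.4%. PFKL was the lowest of the members there, at -1.54 (SE 0.11, limma adjusted p = 7.10e-07), and PKM the highest, at 0.96 (SE 0.10, 1.48e-05). After median polish PKM did not pass (0.098, limma adjusted p = 0.484), and against the row median it stood at 0.29, below PFKFB2 (0.88), PFKM (0.82) and PFKFB3 (0.67). PFKP, at -0.37 (limma adjusted p = 0.0177), did not pass without EPA-treated replicate 4 (-0.35, 0.0612) or 5 (-0.34, 0.0863). As shares of OTP3 the members then ranged from 19.7% ± 0.362 (PFKL) to 112.7% ± 19.3 (PKM), and centred on OTP3 7 were lower and 1 was higher, beside 64.7% and 13.5% of all siRNAs.

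Centred on the median siRNA's own difference, 131 of all library siRNAs were higher, beside 272 in the plate-centred fit. Of the 14 members 1 was higher there, PFKFB3 (0.67, limma adjusted p = 0.0188). PFKP (0.29), PFKFB2 (0.38) and PKM (0.40) did not pass. With blank subtraction and median polish together PFKFB3 did not pass either (0.83, limma adjusted p = 0.0542).

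Correction for plate position kept the 3 lower calls of EPA-treated minus untreated and changed others. Against the row median 4 members were lower, beside 14.9% of all siRNAs, and 3 were higher, beside 19.9%. These were PFKL, PGK1, PGK2 and PKLR lower, and PFKFB3, PFKM and PFKP higher. After median polish of plate rows and columns 5 were lower, beside 14.1%, and 3 higher, beside 16.3%. HK3 (-0.52, limma adjusted p = 0.0137) joined PKLR (-0.75, 0.00843) among the lower calls there, and the higher ones were PFKFB3 (0.61, 0.0302), PFKM (0.56, 0.0110) and PFKP (0.60, 0.0249).

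Other kinases that handle sugars or gate pyruvate were read from the same fit. Of 12 listed genes that phosphorylate sugars or glycated amines outside the members, 10 were measured, and 0 were lower and 6 higher with EPA relative to untreated, beside the 15.2% and 29.0% of all siRNAs given above. After median polish 3 were higher (16.3% of all siRNAs), and centred on OTP3 7 were (58.1%). Among them were NAGK (0.81, SE 0.14, limma adjusted p = 0.00162), which salvages N-acetylglucosamine, and RBKS (0.63, SE 0.13, 0.00401), which phosphorylates ribose. NAGK and RBKS sat in edge wells, and after median polish neither passed (0.38, limma adjusted p = 0.0596, and 0.33, 0.0819).

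All 6 listed genes at the pyruvate step were measured, 4 pyruvate dehydrogenase kinases and 2 phosphoenolpyruvate carboxykinases. With EPA relative to untreated 1 was lower and 1 higher, beside those same shares of 15.2% and 29.0%. Centred on OTP3 0 were lower and 4 higher (6.28% and 58.1% of all siRNAs), and once plate rows and columns were polished 2 and 1 (14.1% and 16.3%). PDK1, a kinase that shuts the pyruvate dehydrogenase complex, was at -0.76 (SE 0.16, limma adjusted p = 0.00419), its well reading 33694, 26244 and 30467 untreated and 11838, 9676 and 10428 with EPA. PCK1, the cytosolic carboxykinase of gluconeogenesis, was at 0.84 (SE 0.15, limma adjusted p = 0.00199), with its well at 7225 ± 309.8 untreated and 7947 ± 2298 with EPA (SD, n = 3), which overlapped. Of 7 AMPK subunits, the energy sensor that acts on PFKFB enzymes, 4 were measured. Relative to the plate PRKAA1, a catalytic subunit, was lower at -0.95 (SE 0.14, limma adjusted p = 0.00108) and PRKAG3 higher at 0.66 (SE 0.16, 0.0101). The PRKAG3 well read 7729, 8543 and 8804 untreated and 8610, 7753 and 7408 with EPA, which overlapped. After median polish PRKAA1 no longer passed (-0.33, limma adjusted p = 0.105).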

How the data were processed

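The deposited table held raw fluorescence intensity for 1152 wells on 3 plates, 1 value for each well in each sample, as the file headers call it; this is the unit deposited by the authors. Per the labels' protocols the authors read it on a plate reader after a resazurin incubation. Background subtraction or normalization by the authors is not given in the sources used here. Columns are headed by group and numbered 1 to 3 (untreated) and 4 to 6 (EPA), and were assigned to groups only. The sources do not say whether the samples came from separate cultures. The p-values thus cover the spread among these 6 samples alone, and that spread can be technical.

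Each reading was taken as log2 of its ratio to the library median of its own plate and sample, without a pseudocount or filter. limma 3.58.1 in R 4.3.3 fitted group means to all 939 wells (trend and robust options). Two-sided p-values were adjusted over all 939 wells (Benjamini-Hochberg, threshold 0.05). Symbols were updated by locus identifier through a RefSeq table of assembly GRCh38.p14. Isozyme pairs were compared by exact permutation tests in scipy 1.17.1. Every member is named, as are up to 3 passing genes of each other list, by moderated statistic. A gene that this rule selects is not reported here. Members and lists were chosen with earlier results of these data known. The small number of samples (3 in each group) and the distance from the blank level limit the precision.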

Additional observations from a re-analysis of the deposited data

How the results depend on the processing

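No paired analysis was possible because the columns of the deposited table are numbered 1 to 6 through both groups and share no replicate number. PFKL, PGK1 and PGK2 were lower with EPA relative to untreated in all 16 alternative fits, and PFKFB4 passed in none. The calls of the others changed with the centring, the position correction or the replicates used. For EPA-treated minus untreated, the members called lower numbered 5 (3 in the reported fit) after median polish and after blank subtraction with median polish. Those called higher numbered 8 (4 in the reported fit) with OTP3 centring, where 58.1% of all siRNAs were higher. They numbered 1 with both corrections (beside 125 of the 939) and 1 centred on the median siRNA (beside 131). At an adjusted p under 0.01 they numbered 2, and without single replicates 2 to 3. Untreated, OTP3 centring gave 14 lower and 0 higher, beside 91.8% and 0.532% of all siRNAs. The higher calls (5, beside 318 of the 939) became 1 with row centring, 3 with blank subtraction and 2 with blank subtraction and median polish. Of the 939 library siRNAs 274, 293 and 207 were higher in these 3 settings. The members numbered 2 at an adjusted p under 0.01, and 2 to 6 without single replicates (280 to 328 of the 939). With EPA the higher calls (7, beside 342 of the 939) became 1 with OTP3 centring (127 of the 939) and 4 with row centring (303). After median polish they numbered 2, without blank subtraction (285 of the 939) or with it (276).

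Directions of calls that turned were, with OTP3 centring, untreated HK1 (-0.27), HK3 (-0.33), PFKL (-0.79), PGK2 (-0.82) and PKM (-0.75), and with EPA HK2 (-0.22), PFKM (-0.14), PFKFB2 (-0.031) and PFKFB3 (-0.24). Row centring turned PKM untreated (-0.035), and with EPA HK2 (-0.36), HK3 (-0.11) and PFKP (0.017). Median polish turned PKM untreated (-0.12), and with EPA HK2 (-0.11), PFKP (0.043) and PFKFB3 (-0.0020). Both corrections together turned PKM untreated (-0.15), and with EPA HK2 (-0.12), HK3 (-0.0074) and PFKP (0.036). Of these turned values, only the untreated ones with OTP3 centring and the row-centred HK2 with EPA passed in the other direction. The rest did not pass, so there the calls were lost rather than reversed. The cause of these changes was not tested.

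Isozyme pairs without overlap numbered 6 of the 14 tested, and 3 with row centring. The share without overlap among other pairs of library wells was not computed, so these counts do not set the isozymes apart. OTP3 kept 44.7% as a median over wells. The TOX share of OTP3 was 12.8% untreated, 8.76% without untreated replicate 1, and 5.68% after blank subtraction, with 14.5% in that replicate and 1.28% and 1.21% in the others. The share was 16.03% with EPA (17.8% as medians, 0.366% after blank subtraction). With EPA relative to untreated, sugar kinases had 3 higher after median polish (6 before). The pyruvate list had 2 lower after median polish, and 0 lower and 4 higher with OTP3 centring. AMPK subunits had 0 lower under both. Centring on inner wells was chosen after seeing the data and left 3 members lower and 5 higher. The PFKL signal with EPA lies near the blank level, which limits the size of its value.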
